A study of Mus musculus with 2 samples.

Results

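The genes examined were 10 transcription factors of the T lineage and of effector T cells: *Tbx21*, *Eomes*, *Gata3*, *Rora*, *Runx1*, *Runx2*, *Runx3*, *Zbtb7b*, *Zeb2* and *Zbtb16*. They were taken by name from the 32285 genes of the deposited matrices, and all 10 were present in both. Their levels, and the share of cells in which they were detected at equal depth, were compared between genotypes in 4 groups of cells set by the transcripts a cell carried. These groups were *Cd4* cells without a detected *Foxp3* transcript, *Foxp3*-positive cells, *Cd8* cells and innate-like T cells.

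The study sequenced RNA from single TCRβ+ cells, which are T cells carrying the αβ receptor, from spleen pooled with cervical and inguinal lymph nodes of mice aged 14 weeks. The WT mouse carried Foxp3Cre alone. The DKO-severe mouse carried Foxp3Cre with floxed *Tet2* and *Tet3*, 2 enzymes that oxidise methylated cytosine in DNA. Both genotypes therefore express Cre, and because *Foxp3* drives it, deletion starts in regulatory T cells (Treg cells, which restrain immune responses), while the other T cells of the DKO-severe mouse need not lack the 2 genes. There was 1 mouse of each genotype, with 10000 cells loaded per the labels, and antibody hashtags told the genotypes apart inside 1 shared mRNA library. No spread between mice can be given, no test between genotypes was possible, and all intervals below are 95% intervals that cover counting error only.

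Transcription factors of this kind set which T cell a precursor becomes and what it does once activated. *Zbtb7b* (ThPOK) and *Runx3* oppose each other in the choice between CD4 and CD8 T cells, *Gata3* and *Runx1* act in both lineages, and *Zbtb16* (PLZF) drives the innate-like programme of natural killer T cells. In activated cells *Tbx21* (T-bet), *Eomes* and *Zeb2* direct the type 1 and cytotoxic programme, *Gata3* the type 2 programme, and *Rora* takes part in the type 17 programme and in innate-like cells, while *Runx2* has been tied to long-lived CD8 T cells.

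Runx proteins bind short DNA motifs, so the promoters of the members were searched for 1 such motif, TGTGGT or ACCACA on the other strand. RefSeq (build GRCm38.p6) gave 15 windows of 250 bases before a transcription start for 9 members, and none for *Zbtb16*. The motif was in 3 of these 15 windows, against 14.0% of all 32851 RefSeq windows of this length. The 3 matches were in *Runx3*, *Zbtb7b* and *Runx2*, and they are shown because *Runx3* and *Zbtb7b* are the opposed factors of the CD8 and CD4 lineages and *Runx2* is a member whose level stood higher in DKO-severe cells of both. Capitals mark the motif, and all are written 5′ to 3′ on the strand of the gene.
Runx3, upstream start, chr4:135120395-135120644, plus strand: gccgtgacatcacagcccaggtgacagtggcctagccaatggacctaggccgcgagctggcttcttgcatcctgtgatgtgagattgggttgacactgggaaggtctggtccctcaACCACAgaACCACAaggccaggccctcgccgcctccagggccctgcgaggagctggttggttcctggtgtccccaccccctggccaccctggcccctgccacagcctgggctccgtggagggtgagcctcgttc
Zbtb7b, inner start, chr3:89387672-89387921, minus strand: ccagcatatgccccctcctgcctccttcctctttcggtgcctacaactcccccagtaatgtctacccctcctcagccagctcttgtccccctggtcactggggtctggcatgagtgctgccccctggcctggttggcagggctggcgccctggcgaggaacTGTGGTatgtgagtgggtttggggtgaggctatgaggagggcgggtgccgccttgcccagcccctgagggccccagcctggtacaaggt
Runx2, 30 bases around the match, chr17:44814690-44814719, minus strand: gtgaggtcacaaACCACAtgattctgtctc
The *Runx2* match lies inside the gene as annotated by GENCODE, a second gene annotation, downstream of its 5′ end. Of the 250 bases of that window, 170 are exonic in GENCODE. The upstream *Runx3* window held 2 copies of the motif side by side. The *Runx2* window held no CpG site (a C followed by G, the site that is methylated), against 38 in the window of the inner *Runx3* start and a median of 6 over all windows. These matches describe letters only, and no binding was measured here.

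After filtering, 6584 WT and 6359 DKO-severe cells were retained, with medians of 5616.5 and 8066 UMIs (unique molecular identifiers, each 1 captured molecule). The *Cd4* Foxp3-negative gate held 1675 WT and 2407 DKO-severe cells, the Foxp3-positive gate 64 and 331, the *Cd8* gate 3052 and 1735, and the innate-like gate 100 and 253. A cell without a *Foxp3* UMI can still be Treg-like. The *Cd4* Foxp3-negative gate held 216 WT and 76 DKO-severe cells of Treg-like cluster 5, against 51 and 31 in the Foxp3-positive gate. Of Treg-like cluster 6 it held 0 and 253 cells, against 1 and 214. These 2 gates therefore do not separate Treg-like cells from other *Cd4* cells. Some gated cells sat in clusters marked by genes of B, plasma, myeloid or erythroid cells: 1.55% (WT) and 3.82% (DKO-severe) in the *Cd4* Foxp3-negative gate, 1.56% and 6.65% in the Foxp3-positive gate, 0.852% and 1.67% in the *Cd8* gate, and 12% and 33.2% in the innate-like gate. In the last of these, the 6 granulocyte markers summed to 66.5 CPM (UMIs of a gene per 1000000 UMIs of the gate) in WT, with *Ltf* at 0, and to 139085 CPM in DKO-severe, with none at 0. Only 1 WT and 2 DKO-severe cells of that gate held a UMI of *Trav11* or *Trav11d*, the receptor segments of invariant natural killer T cells, so the data do not show that its cells are of that type. Results for the members below are therefore also given without the cells of such clusters where that alters them. Counts over lists of other genes in the Foxp3-positive and innate-like gates are given with all cells only.

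**Figure D1:**
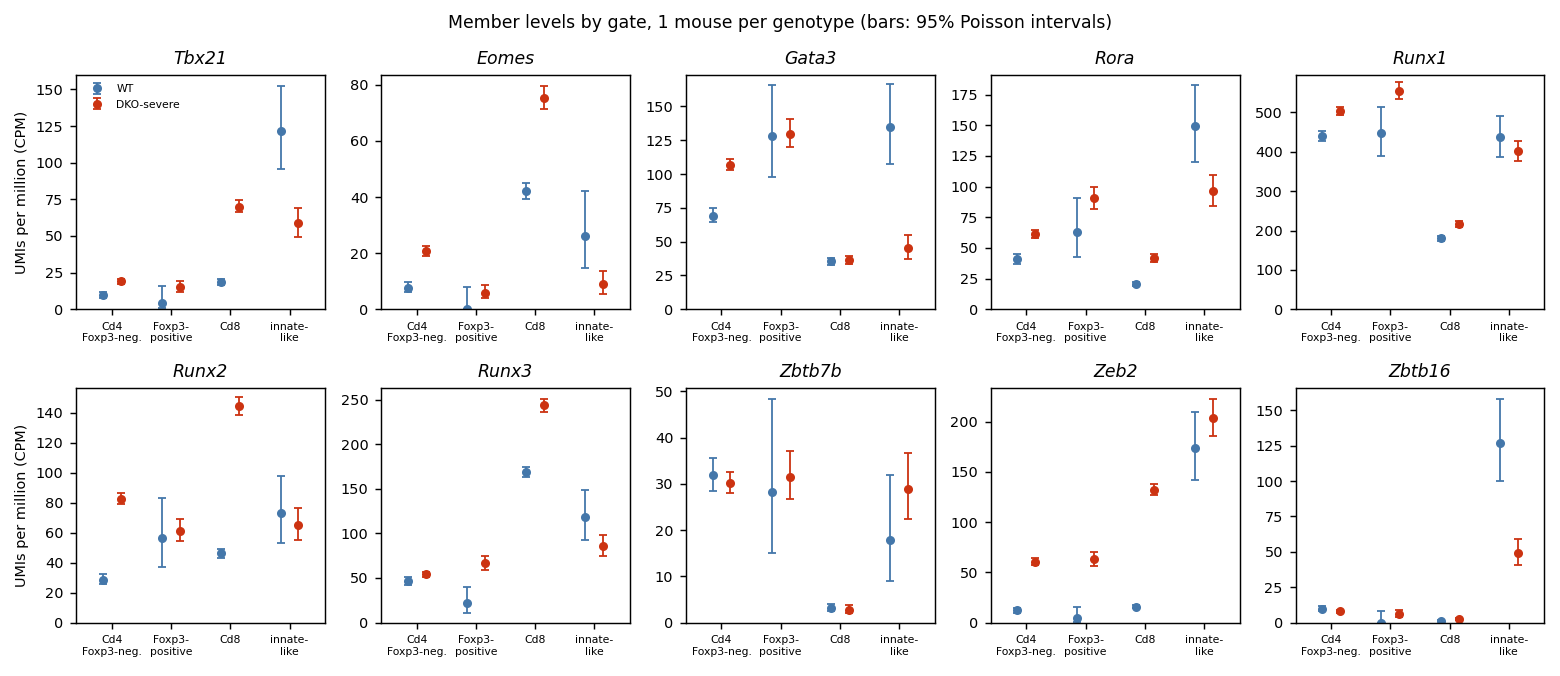
Level of each of the 10 genes (CPM, y axis from 0) in the 4 gates (x axis), for the WT (blue) and DKO-severe (red) mouse, with 95% Poisson intervals as bars. In the Cd8 gate the red points of Tbx21 (70.1 CPM), Runx2 (144 CPM) and Zeb2 (132 CPM) lie far above the blue ones (18.4, 46.2 and 15.9 CPM), while Zbtb7b is near 0 there in both mice.

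In the *Cd8* gate, 5 of the 10 members were at least 2-fold higher in DKO-severe and none was 2-fold lower. Of the 5848 genes with a mean of 20 or more CPM in that gate, 1.71% were at least 2-fold higher and 0.872% at least 2-fold lower. The members at least 2-fold higher were *Tbx21*, *Rora*, *Runx2*, *Zeb2* and *Zbtb16*, and the median log2 ratio of DKO-severe over WT was 0.93 over the members and -0.01 over all genes tested. *Zbtb16* was among them on 26 WT and 43 DKO-severe UMIs. In the *Cd4* Foxp3-negative gate 3 members were at least 2-fold higher (*Eomes*, *Runx2* and *Zeb2*), where 7.98% of 6301 genes were, and *Tbx21* had a log2 ratio of 1.00 (0.67 to 1.34), just under the limit. None was 2-fold lower, where 3.3% of genes were. The Foxp3-positive gate also had 3 (*Tbx21*, *Runx3* and *Zeb2*) at least 2-fold higher, where 8% of 6488 genes were, and none 2-fold lower, where 5.8% were. For *Tbx21* and *Zeb2* there, the WT count was 2 UMIs. The innate-like gate had 4 members at least 2-fold lower (*Tbx21*, *Eomes*, *Gata3* and *Zbtb16*), where 8% of 6339 genes were, and none higher, where 6.52% were. There the median of all genes was -0.29 on the log2 scale, and with median-ratio scaling, which sets it to 0, 8.83% of genes were higher and 3.09% lower. These shares are over genes with a mean of 20 or more CPM, which *Eomes* in the *Cd4* Foxp3-negative and innate-like gates, *Zbtb16* in the *Cd8* gate and *Tbx21* in the Foxp3-positive gate did not reach. With no filter beyond 3 UMIs, the shares higher and lower were 17.1% and 9.28% (*Cd4* Foxp3-negative), 8.57% and 16.6% (Foxp3-positive), 8.51% and 5.33% (*Cd8*), and 7.58% and 16.4% (innate-like). Of the 10 members, 7, 7, 8 and 9 had a mean of 20 or more CPM in the 4 gates in the order *Cd4* Foxp3-negative, Foxp3-positive, *Cd8* and innate-like.

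**Figure D2:**
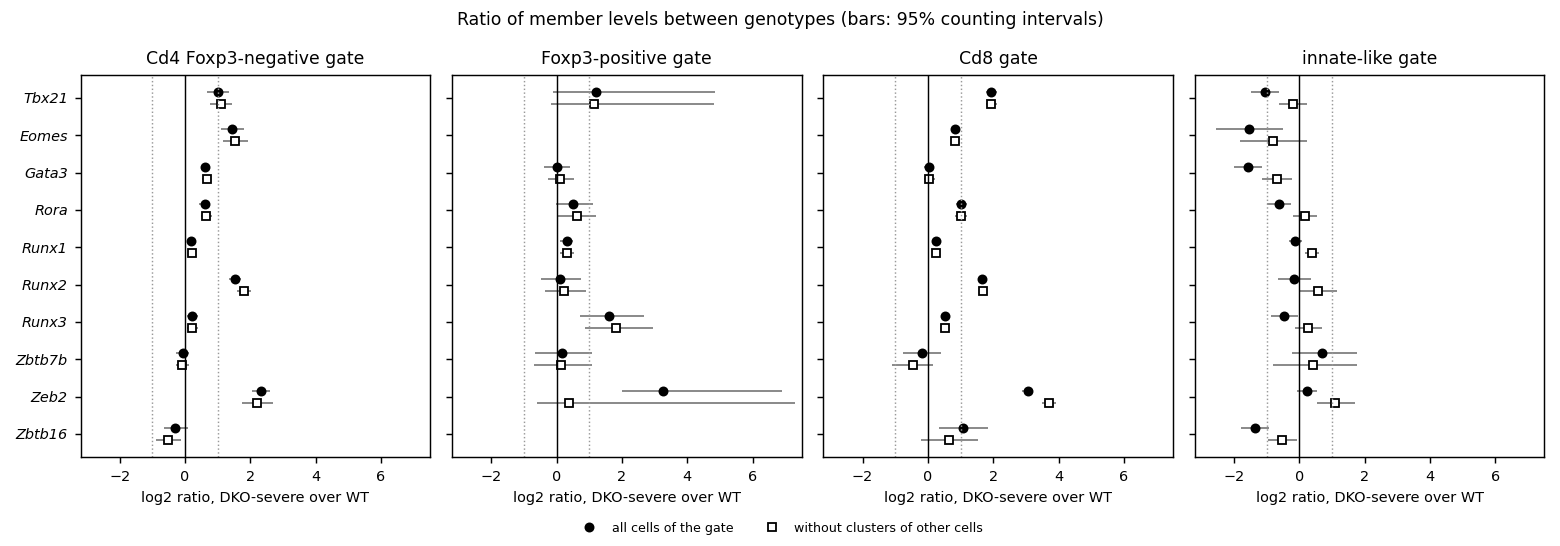
Log2 ratio of DKO-severe over WT CPM (x axis) for each gene (y axis) in each gate. Filled circles are all cells of the gate, open squares the cells outside clusters of other cell types, bars are 95% counting intervals and dotted lines mark 2-fold. Genes without a point (Eomes and Zbtb16 in the Foxp3-positive gate) had 0 UMIs in WT, and a count of 1 or 2 was taken as 3 for the point (Tbx21 and Zeb2 of the Foxp3-positive gate). In the innate-like gate the ratios of Rora and Runx3 move from below 0 (-0.64 and -0.46) to above 0 (0.16 and 0.27).

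The factors of the CD4 and CD8 lineage choice kept the gates apart in both mice. *Zbtb7b* (ENSMUSG00000028042, GRCm38 chromosome 3, 89377644 to 89394776), needed for CD4 T cell identity, was at 31.8 CPM (WT) and 30.2 CPM (DKO-severe) in the *Cd4* Foxp3-negative gate, and at 28.3 and 31.6 CPM in the Foxp3-positive gate. In the *Cd8* gate it was at 3.14 and 2.78 CPM, so the CD8 level lay below the CD4 level by 3.34 on the log2 scale in WT (log2 ratio -3.34, -3.74 to -2.95) and by about as much in DKO-severe (-3.44, -3.91 to -3.01). Between genotypes its log2 ratio was -0.07 (-0.27 to 0.12) in the *Cd4* Foxp3-negative gate and -0.18 (-0.75 to 0.39) in the *Cd8* gate, and both intervals hold 0. Its 6 highest levels, those of all groups outside the *Cd8* gate, could not be ranked, since every interval between neighbours held 0.

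*Runx3* (ENSMUSG00000070691, chromosome 4, 135120652 to 135177990), which silences *Cd4* and promotes cytotoxic genes in CD8 T cells, had the opposite order. It was highest in the *Cd8* gate, at 169 CPM (WT) and 244 CPM (DKO-severe), a log2 ratio of 0.53 (0.46 to 0.59). The innate-like gate followed at 118 and 85.9 CPM, and the *Cd4* Foxp3-negative gate was lower at 46.3 and 54.1 CPM. Every step in the order of its 8 levels had an interval that leaves out 0. The innate-like levels without clusters of other cells were 132 CPM (WT) and 159 CPM (DKO-severe), in the other order, with a log2 ratio of 0.27 (-0.14 to 0.68) in place of -0.46 (-0.86 to -0.06). In Foxp3-positive cells *Runx3* stood at 21.8 CPM (10 UMIs) in the WT and 66.3 CPM (313 UMIs) in the DKO-severe mouse, a log2 ratio of 1.61 (0.71 to 2.68). In WT its Foxp3-positive level was below that of *Cd4* Foxp3-negative cells (log2 ratio -1.09, -2.16 to -0.20) and in DKO-severe above it (0.29, 0.11 to 0.47). Without clusters of other cells the Foxp3-positive log2 ratio between genotypes was 1.81 (0.87 to 2.95). The same direction held within cluster 5, a Treg-like cluster led by *Il2ra* and *Ikzf4*. There *Runx3* had 16.8 CPM across 51 WT cells and 62.1 CPM across 31 DKO-severe cells of the Foxp3-positive gate (log2 ratio 1.89, 0.52 to 3.49), and 25.8 and 74.7 CPM in *Cd4* Foxp3-negative cells (1.53, 0.89 to 2.19). In cluster 4, a CD8-like cluster led by *Samd3* and *Ifngas1*, *Cd8*-gated cells had 175 and 267 CPM (0.61, 0.47 to 0.75).

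*Runx1* (ENSMUSG00000022952, chromosome 16, 92601466 to 92826149), used from early thymocytes onward, was at 440.1 CPM (WT) and 504 CPM (DKO-severe) in *Cd4* Foxp3-negative cells, 449 and 555 CPM in Foxp3-positive cells, 180.1 and 216 CPM in *Cd8* cells, and 436 and 401 CPM in innate-like cells. The *Cd8* level was the lowest in both mice. Its log2 ratios between genotypes were 0.20 (0.14 to 0.25), 0.31 (0.10 to 0.52), 0.26 (0.19 to 0.33) and -0.12 (-0.32 to 0.08) in that order. The first 3 were small and above 0, and without clusters of other cells the last became 0.38 (0.16 to 0.60).

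*Gata3* (ENSMUSG00000015619, chromosome 2, 9857078 to 9890034), which is needed for CD4 T cell development and directs type 2 cytokines, was at 69.3 CPM (WT) and 107 CPM (DKO-severe) in *Cd4* Foxp3-negative cells, a log2 ratio of 0.62 (0.50 to 0.75). In *Cd8* cells it was at 35.6 and 36.5 CPM (0.04, -0.12 to 0.20), and in Foxp3-positive cells at 129 and 129.9 CPM (0.02, -0.37 to 0.43). In none of the 3 clusters that could be compared was the *Cd4* level higher in DKO-severe. In naive-like cluster 0 *Gata3* was at 51.9 and 39.4 CPM (-0.40, -0.87 to 0.04), in Treg-like cluster 5 at 101 and 57.4 CPM (-0.81, -1.36 to -0.30), and in cluster 7, led by *Itgb1* and *Rora*, at 122 and 89.6 CPM (-0.45, -0.89 to -0.02). Cluster 0 held 70.3% of the WT cells of the gate, while 42.5% of the DKO-severe cells were in Tfh-like cluster 2 (follicular helper T cells, which help B cells), which held 42.5% of their *Gata3* UMIs, and 10.5% were in Treg-like cluster 6, which held 21.1%. In this gate clusters 2 and 6 held 5 and 0 WT cells, so no ratio was computed there.

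Among the type 1 factors, *Tbx21* (ENSMUSG00000001444, chromosome 11, 97098071 to 97115331), the factor that drives *Ifng* expression, was at 18.4 CPM (WT) and 70.1 CPM (DKO-severe) in *Cd8* cells, a log2 ratio of 1.93 (1.76 to 2.10). In *Cd4* Foxp3-negative cells it was at 9.51 and 19.0 CPM, and without clusters of other cells its log2 ratio there was 1.09 (0.75 to 1.44), past 2-fold. In Foxp3-positive cells it was at 4.36 CPM, from 2 UMIs of 1 cell, and 15.0 CPM, with an interval of the log2 ratio from -0.12 to 4.86. The highest *Tbx21* level of the 8 gate levels was that of WT innate-like cells, at 122 CPM. Levels in DKO-severe *Cd4* and WT *Cd8* cells were next to each other in the order and did not differ beyond counting error. Within *Cd8* clusters 4 and 8 the *Tbx21* intervals held 0. It was at 67.1 CPM (WT) and 69.3 CPM (DKO-severe) in cells of cluster 4 (log2 ratio 0.05, -0.19 to 0.28), and 189.7 and 179 CPM in cells of cluster 8 (-0.08, -0.52 to 0.39), a cluster led by *Gzma*, *Gzmk* and *Ccl5*. Cluster 4 made up 11.9% of the WT and 32.8% of the DKO-severe gate, and cluster 8 made up 1.28% and 24.6%. In the smaller *Cd8* cluster 15, led by the interferon-induced genes *Ifit3* and *Ifit1*, *Tbx21* was higher in the DKO-severe mouse, at 74.6 CPM against 9.95 CPM (2.91, 1.37 to 4.89), and cluster 14 held 0 and 9 UMIs. The log2 ratios of clusters 1, 3 and 7 were 0.45 (-0.9995 to 1.69), 0.56 (-0.21 to 1.31) and -1.03 (-2.70 to 0.44). In *Cd4* cells of cluster 7 *Tbx21* stood lower in the DKO-severe mouse, at 16.3 CPM against 55.1 CPM (-1.76, -2.73 to -0.88). The DKO-severe *Cd4* UMIs of *Tbx21* came mainly from cluster 13 (35.7% of UMIs, 7.98% of cells), led by *Ccl3*, *Ccl4* and *Spp1*, and from cluster 2 (20.6%).

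*Eomes* (ENSMUSG00000032446, chromosome 9, 118478212 to 118486132), the paralogue of *Tbx21* found in memory CD8 T cells and natural killer cells, was highest in *Cd8* cells, at 42.1 CPM (WT) and 75.4 CPM (DKO-severe) (log2 ratio 0.84, 0.71 to 0.97). In *Cd4* Foxp3-negative cells it was at 7.67 and 20.8 CPM (1.44, 1.08 to 1.81). In that gate 1 WT cell held 29.3% of the WT UMIs, and without the cell with most UMIs in each mouse the log2 ratio was 1.89 (1.48 to 2.33). In DKO-severe, 44.1% of these UMIs came from cluster 13 and 22.6% from cluster 14, led by *Hdac9* and *Rgs6*, which held 1.12% of the cells. *Eomes* had 0 UMIs in WT Foxp3-positive cells, where the limit of 3 UMIs lies above the DKO-severe level of 5.93 CPM, so no ratio is given. Within cluster 4, *Cd8* cells had 103 and 93.6 CPM (-0.14, -0.33 to 0.06).

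*Zeb2* (ENSMUSG00000026872, chromosome 2, 44983632 to 45117395), a repressor induced by T-bet in terminal effector CD8 T cells and also used by myeloid and B cells, had the largest log2 ratio of the members in the *Cd8* and the *Cd4* Foxp3-negative gate. In *Cd8* cells it was at 15.9 CPM (WT) and 132 CPM (DKO-severe) (3.06, 2.89 to 3.23). Of the WT UMIs 39.0% came from monocyte- or macrophage-like cluster 16, and 81.9% of the DKO-severe UMIs came from cluster 8. Without clusters of other cells the levels were 9.26 and 121 CPM, a log2 ratio of 3.71 (3.50 to 3.93). Within cluster 8, 39 WT and 426 DKO-severe *Cd8* cells had 478 and 679 CPM (0.50, 0.23 to 0.79). Clusters 1 and 3 had log2 ratios of 3.08 (0.72 to 5.77) and 1.86 (0.07 to 3.82), on at most 8 UMIs per mouse. In clusters 4, 7 and 14 they were -0.57 (-1.33 to 0.21), 0.19 (-1.93 to 2.31) and -0.75 (-3.02 to 1.33). Cluster 15 held 0 WT and 13 DKO-severe UMIs.

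In *Cd4* Foxp3-negative cells *Zeb2* was at 12.1 and 60.7 CPM (2.33, 2.06 to 2.61). Here 63.6% of the DKO-severe UMIs came from cluster 16, which held 2.20% of the cells, and the 6 monocyte and macrophage markers summed to 61.5 CPM (WT) and 441 CPM (DKO-severe), with none at 0. Without clusters of other cells *Zeb2* was at 4.44 and 20.5 CPM (2.21, 1.75 to 2.70), so both levels were lower while the ratio between the mice was much the same. In cluster 7 it was at 7.71 and 34.9 CPM (2.18, 0.96 to 3.61). Cluster 5 had a log2 ratio of -0.07 (-1.40 to 1.14), and naive-like cluster 0 held 7 WT UMIs and 1 DKO-severe UMI. In Foxp3-positive cells the WT mouse had 2 UMIs of *Zeb2*, against 298 (63.1 CPM) in DKO-severe, of which 77.2% came from cluster 16. Without clusters of other cells 1 and 36 UMIs remained, 2.26 and 8.78 CPM, and the interval of the log2 ratio ran from -0.61 to 7.30.

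*Runx2* (ENSMUSG00000039153, chromosome 17, 44495987 to 44814797), best known from bone and also expressed in activated T cells, was higher in DKO-severe in the *Cd4* Foxp3-negative and *Cd8* gates taken whole. It was at 28.6 and 82.6 CPM in *Cd4* Foxp3-negative cells (log2 ratio 1.53, 1.35 to 1.71) and at 46.2 and 144 CPM in *Cd8* cells (1.64, 1.54 to 1.75). In Foxp3-positive cells it was at 56.6 and 61.2 CPM (0.11, -0.47 to 0.75), and the 6 levels from rank 2 to rank 7 of its order could not be told apart from their neighbours. Inside *Cd8* clusters the differences in *Runx2* varied. In cluster 1, led by *Ccr9*, it was at 9.73 CPM (WT) and 20.9 CPM (DKO-severe) (1.10, 0.50 to 1.68), and in cluster 3, led by *Auts2*, at 29.0 and 68.7 CPM (1.24, 0.93 to 1.56). In clusters 4 and 8 its levels were closer, with log2 ratios of 0.10 (-0.05 to 0.26) and 0.35 (-0.05 to 0.79). The remaining log2 ratios were 0.85 (0.19 to 1.52) in cluster 7, 0.51 (-0.48 to 1.55) in cluster 14 and 2.44 (1.37 to 3.67) in cluster 15. None of the 3 clusters that could be compared in the *Cd4* Foxp3-negative gate showed the difference of the whole gate, with -0.50 (-2.20 to 0.85) in naive-like cluster 0, -0.51 (-1.21 to 0.16) in Treg-like cluster 5 and 0.08 (-0.39 to 0.55) in cluster 7. In *Cd4* cells cluster 13 gave 38.8% of the DKO-severe UMIs, and over all its 230 DKO-severe cells *Runx2* reached 420.1 CPM, its highest level in any group.

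*Rora* (ENSMUSG00000032238, chromosome 9, 68653786 to 69388246), a nuclear receptor that acts in type 17 cells and is abundant in innate-like lymphocytes, was at 20.5 and 41.7 CPM in *Cd8* cells (log2 ratio 1.02, 0.85 to 1.20), at 40.8 and 61.6 CPM in *Cd4* Foxp3-negative cells (0.59, 0.43 to 0.76), and at 63.2 and 90.5 CPM in Foxp3-positive cells (0.52, -0.03 to 1.11). The *Cd8* gate as a whole and some of its clusters pointed in different directions. Within cluster 1 *Rora* stood lower in the DKO-severe mouse, at 5.81 CPM against 13.9 CPM (-1.26, -2.35 to -0.33), and likewise within cluster 3, at 7.81 CPM against 18.4 CPM (-1.24, interval below -0.53). Cluster 8 held 59.9% of the DKO-severe *Rora* UMIs of the gate, with 157 CPM in DKO-severe and 119.6 CPM in WT (0.39, -0.16 to 0.99). The log2 ratios of clusters 4 and 7 were 0.10 (-0.54 to 0.77) and -0.49 (-1.14 to 0.15). Clusters 14 and 15 held 6 and 4 *Rora* UMIs in WT and 0 in DKO-severe.

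*Zbtb16* (ENSMUSG00000066687, chromosome 9, 48654297 to 48836222), the innate-like factor, was highest in the gate set by innate-like genes. In innate-like cells it was at 127 CPM (WT) and 48.9 CPM (DKO-severe), and cluster 9, led by *Atp8a2*, *Zbtb16* and *Clnk*, held 84.6% and 93.9% of these UMIs. Outside that gate it was at 9.72 and 7.92 CPM in *Cd4* Foxp3-negative cells (log2 ratio -0.30, -0.66 to 0.08) and at 1.24 and 2.60 CPM in *Cd8* cells. Without clusters of other cells the *Cd4* log2 ratio was -0.52 (-0.90 to -0.13), and that of *Cd8* cells went from 1.07 (0.34 to 1.83) to 0.66 (-0.21 to 1.54), under 2-fold. Detection in all cells of the *Cd4* Foxp3-negative gate at equal depth went the other way, at 0.964% (WT) and 2.06% (DKO-severe), with intervals that overlap. The 95 WT UMIs of that gate lay in 20 cells. Cluster 9 held 76.8% of the WT and 45.1% of the DKO-severe UMIs in the *Cd4* gate, and 61.5% and 44.2% in the *Cd8* gate. In WT Foxp3-positive cells *Zbtb16* had 0 UMIs, against 28 in DKO-severe, of which 13 came from monocyte- or macrophage-like cluster 16, and no ratio is given. Over all cells of cluster 9, 105 WT cells had 468 CPM and 269 DKO-severe cells 213 CPM, and *Zbtb16* was not among the genes used to form the clusters.

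In the innate-like gate, 4 members were lower in DKO-severe by over 2-fold, beside the many more granulocyte transcripts given above. *Gata3* was at 135 CPM (WT) and 45.5 CPM (DKO-severe) (log2 ratio -1.57, -1.99 to -1.13), *Tbx21* at 122 and 58.7 CPM (-1.05, -1.47 to -0.63), *Eomes* at 26.0 and 8.93 CPM (-1.54, -2.55 to -0.50), and *Zbtb16* at -1.37 on the log2 scale (-1.80 to -0.94). Without clusters of other cells, which left 88 WT and 169 DKO-severe cells, no member was 2-fold lower and the median log2 ratio over all genes went from -0.29 to -0.02. *Gata3* was then at 138 and 85.2 CPM (-0.70, -1.15 to -0.24) and *Zbtb16* at 139.8 and 97.3 CPM (-0.52, -0.96 to -0.08), both still lower in DKO-severe. *Tbx21* was at 134 and 116 CPM (-0.20, -0.63 to 0.23) and *Eomes* at 30.2 and 17.4 CPM (-0.80, -1.82 to 0.25), and both intervals hold 0. *Zeb2* went the other way, from 0.23 (-0.08 to 0.55) to 1.09 (0.53 to 1.69). Within cluster 9, 40 WT and 101 DKO-severe innate-like cells had *Zbtb16* at 316 and 172 CPM (-0.87, -1.33 to -0.41), *Gata3* at 229.6 and 98.8 CPM (-1.22, -1.78 to -0.64), *Tbx21* at 206 and 126 CPM (-0.71, -1.26 to -0.14) and *Rora* at 354 and 301.3 CPM (-0.23, -0.63 to 0.18). *Rora* was at 149 and 96.1 CPM over all cells of the gate (-0.64, -0.99 to -0.27), and its WT level there was the highest of its 8 gate levels. When clusters of other cells were left out *Rora* was at 166 and 186 CPM (0.16, -0.20 to 0.54), so that order of the mice did not hold.

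Detection was compared after each cell was thinned at random to 3800 UMIs, since DKO-severe cells were deeper. This left out 688 WT cells (10.4%) and 476 DKO-severe cells (7.49%) that were shallower. In *Cd8* cells, *Runx2* was detected in 10.9% of the 2902 cells from WT (9.81 to 12.1%) and 34.1% of the 1568 from DKO-severe (31.7 to 36.5%), the widest gap of the 10. Without thinning the shares were 17.2% and 54.3%, at median depths of 6247 and 9187 UMIs. *Tbx21* was detected in 4.79% (4.04 to 5.63%) and 19.7% (17.8 to 21.8%) of *Cd8* cells, *Zeb2* in 1.62% (1.19 to 2.15%) and 14.8% (13.1 to 16.7%), and *Eomes* in 10.0% (8.96 to 11.2%) and 21.0% (19.0 to 23.1%). These 4 factors thus marked more cells in DKO-severe, and 3 more did so by smaller margins: *Runx3* went from 43.4% to 54.6%, *Rora* from 5.65% to 12.4% and *Runx1* from 41.2% to 47.6%, with intervals apart in each case. *Gata3* (11.1% and 13.6%), *Zbtb7b* (0.827% and 0.702%) and *Zbtb16* (0.414% and 0.383%) had intervals that overlap.

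**Figure D3:**
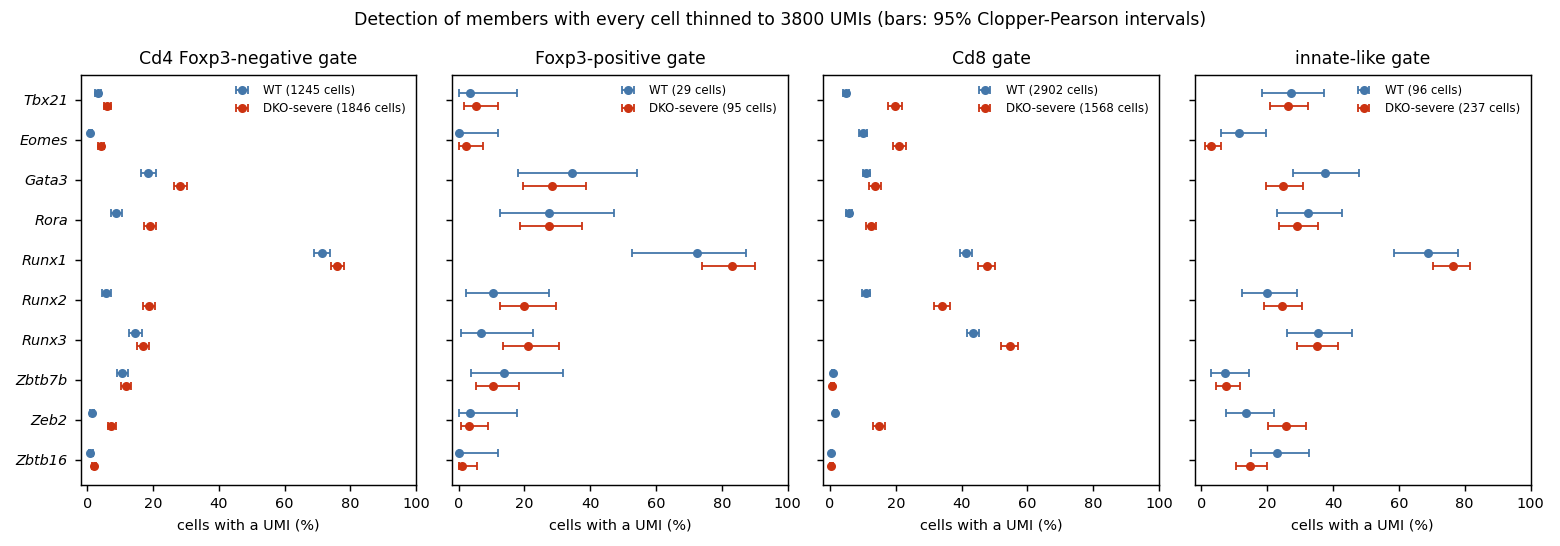
Share of cells with 1 or more UMI of each gene (x axis, percent) after thinning to 3800 UMIs, by gate, for WT (blue) and DKO-severe (red), with 95% Clopper-Pearson intervals as bars and cell numbers in the legends. In the Cd8 gate the red points of Runx2 (34.1%) and Tbx21 (19.7%) lie right of the blue ones (10.9% and 4.79%), while in the Foxp3-positive gate, with 29 and 95 cells, every pair of intervals overlaps.

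In *Cd4* Foxp3-negative cells (1245 WT and 1846 DKO-severe at this depth), *Runx2* went from 5.78% (4.55 to 7.23%) to 18.7% (16.99 to 20.6%), *Rora* from 8.92% (7.39 to 10.6%) to 19.1% (17.4 to 21.0%) and *Gata3* from 18.6% (16.4 to 20.8%) to 28.3% (26.3 to 30.4%). All 3 gaps stood without clusters of other cells, where the *Runx2* shares were 5.44% and 19.6% and the *Rora* shares 8.61% and 19.4%, and where the *Gata3* intervals were also apart. *Zeb2* was detected in 1.37% and 7.37% of cells, and in 0.975% and 5.16% without those clusters. *Tbx21* (3.21% and 6.18%) and *Eomes* (0.884% and 4.12%) were rare in both mice. Without thinning *Runx2* had a UMI in 8.24% and 29.0% of these cells, at median depths of 5258 and 7965 UMIs. In the innate-like (96 and 237 cells) and Foxp3-positive gates (29 and 95) every pair of intervals overlapped. Innate-like shares were 27.1% and 26.2% for *Tbx21*, 37.5% and 24.9% for *Gata3*, 11.5% and 2.95% for *Eomes*, and 22.9% and 14.8% for *Zbtb16*. *Runx3* was in 6.90% and 21.1% of Foxp3-positive cells, and in 10.3% and 12.9% with another thinning seed.

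Free RNA can place a UMI in a cell that does not express the gene, so the same shares were read in B-like and naive-like clusters as a rough background. In DKO-severe cells of the B-like clusters (263 cells thinned to the same depth) *Tbx21* was in 6.84%, *Gata3* in 0.380%, *Rora* in 1.14%, *Eomes* in 1.14%, *Runx2* in 2.66% and *Zbtb16* in 0% (which allows up to 1.14%). In naive-like cluster 0 *Tbx21* was in 0.151% of 1987 WT cells, *Zeb2* in 0.403%, *Runx2* in 2.11% and *Eomes* in 1.21%. The *Eomes* share of WT *Cd4* cells was not told apart from the B-like share, since their intervals overlap. Cluster 0 gives no separate background for that share, because it held 70.3% of the WT cells of the *Cd4* Foxp3-negative gate. The *Zbtb7b* shares of *Cd8* cells were below the B-like share, with intervals that overlap. The shares of *Runx2* and *Tbx21* in DKO-severe *Cd8* cells are above the B-like and the naive-like share. The *Zbtb16* shares of *Cd8* cells lie above the 0.101% of WT cells in cluster 0 and below the limit of the B-like share. The *Tbx21* shares of *Cd4* cells lie between the naive-like and the B-like share. The B-like clusters differed in *Tbx21*, with 27.9 CPM in cluster 10 and 0 UMIs in cluster 20 (interval up to 9.47 CPM). *Gata3* was at 4.05 CPM in DKO-severe cells of cluster 10, though over all DKO-severe cells it was at 81.9 CPM, against 34.7 CPM for *Tbx21*. The B-like share therefore cannot be taken as a background of free RNA for *Tbx21*. Whether cells of cluster 10 express this gene was not tested. *Zbtb7b* was in 1.90% of the B-like cells. B cells use *Runx1*, *Runx3* and *Zeb2* themselves (74.5%, 16.7% and 69.2% of DKO-severe cells in the B-like clusters), so they give no background for those.

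Detection of pairs of members in the same thinned cells showed which factors shared cells. In DKO-severe *Cd8* cells, 33.0% of the 309 cells with a *Tbx21* UMI also had *Zeb2* (27.8 to 38.6%), against 10.3% of those without (8.70 to 12.1%). In WT the shares were 7.91% of 139 cells (4.02 to 13.7%) and 1.30% (0.914 to 1.80%). *Zeb2* was thus more frequent beside *Tbx21* in both mice. *Eomes* was detected in 23.0% of WT *Cd8* cells with *Tbx21* (16.3 to 30.9%) and 9.37% of those without (8.31 to 10.5%), whereas in DKO-severe the shares were 24.6% (19.9 to 29.8%) and 20.1% (17.9 to 22.4%), with intervals that overlap. *Runx3* was in 60.1% of DKO-severe *Cd8* cells with *Runx2* (55.8 to 64.3%) and 51.7% of those without (48.6 to 54.8%). The WT shares had the same order, at 48.9% (43.3 to 54.5%) and 42.7% (40.8 to 44.6%), with intervals that overlap.

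**Figure D4:**
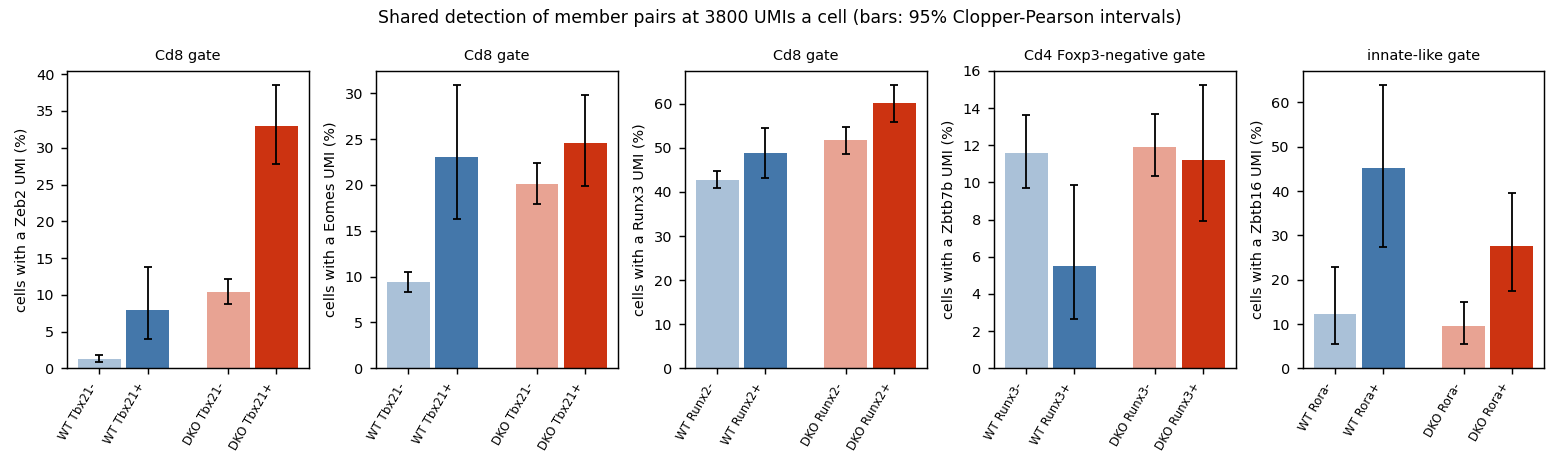
Share of cells with a UMI of a second gene (y axis, percent, from 0) among cells without (pale) and with (dark) a UMI of a first gene, for WT (blue) and DKO-severe (red), at 3800 UMIs a cell with 95% Clopper-Pearson intervals. Zeb2 in DKO-severe Cd8 cells is at 33.0% with Tbx21 and 10.3% without, while for Zbtb7b with and without Runx3 in WT Cd4 cells (5.49% and 11.6%) the intervals overlap narrowly.

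In WT *Cd4* Foxp3-negative cells *Zbtb7b* was detected in 5.49% of 182 cells with *Runx3* (2.67 to 9.87%) and in 11.6% of cells without it (9.71 to 13.6%). In DKO-severe the shares were 11.2% (7.94 to 15.3%) and 11.9% (10.3 to 13.7%). The WT share beside *Runx3* was the lower one, with intervals that overlap only between 9.71 and 9.87%, and in DKO-severe the shares lay close together. *Gata3* and *Tbx21*, which direct opposing cytokine programmes, were found together in 15 of the 40 WT *Cd4* cells with *Tbx21* (37.5%, 22.7 to 54.2%, against 17.9% of those without) and in 22.8% of the 114 in DKO-severe (15.5 to 31.6%, against 28.7%). In innate-like cells *Zbtb16* was in 45.2% of WT cells with *Rora* (27.3 to 64.0%) and 12.3% of those without (5.47 to 22.8%), and in 27.5% (17.5 to 39.6%) and 9.52% (5.54 to 15.0%) in DKO-severe.

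**Figure D5:**
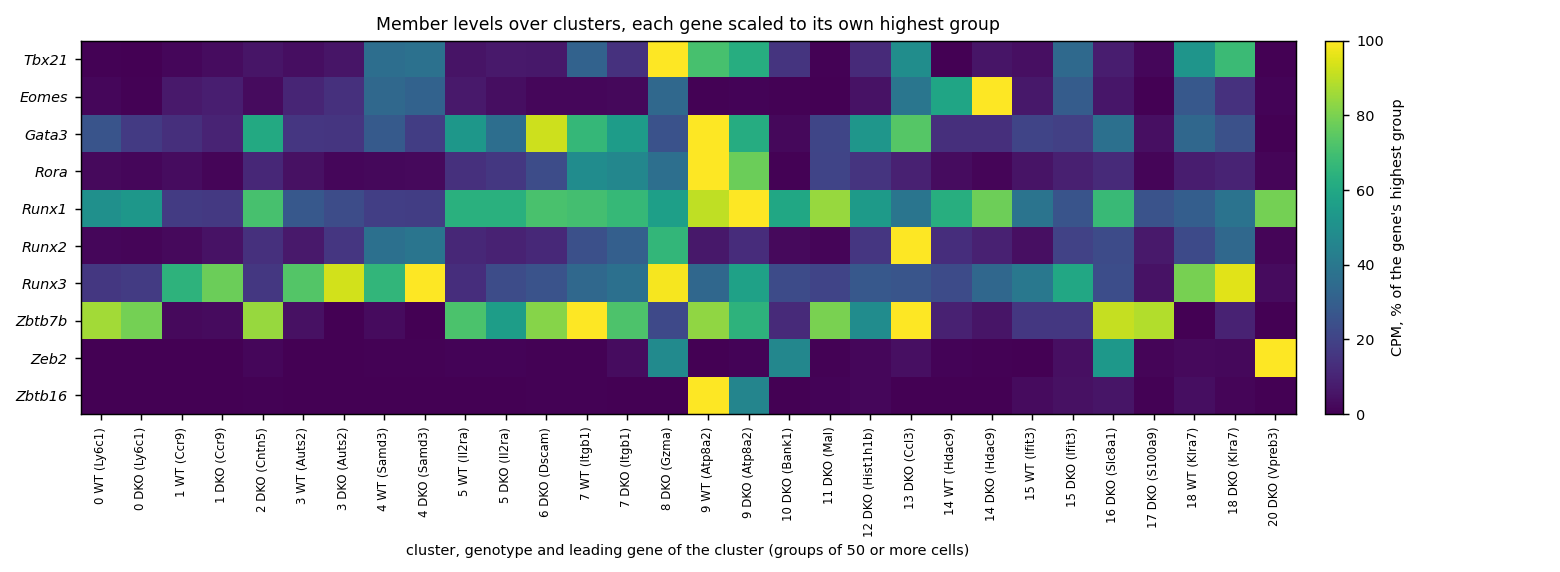
Level of each gene (rows) in 30 groups of cluster and genotype with 50 or more cells (columns, labelled by cluster number, genotype and first leading gene), as a percentage of that gene's highest group. Zbtb16 is bright in cluster 9 alone (468 CPM in WT, 213 CPM in DKO-severe), Runx2 is brightest in cluster 13 and Zeb2 in cluster 20, a B-like cluster, while Runx1 is spread over most groups.

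Over the 30 groups of cluster and genotype with 50 or more cells (10 WT and 20 DKO-severe), the pattern of each member was set beside those of 6191 other genes by the Pearson correlation of log2(CPM + 1). The groups share libraries, mice and depth, so these values describe the clusters and carry no test. *Tbx21* was most like *Ifng* (0.87), *Ccl5* (0.87) and *Cxcr3* (0.85), genes of the type 1 programme. *Runx2* was nearest to *Ccl5* (0.83), *Gng2* and *Nkg7*, and *Eomes* to *Crtam* (0.87), *Ifngas1* and *Lcn4*. *Runx3* was closest to *Epsti1* (0.90), *Ctsw* and *Sytl3*, and *Zbtb7b* to *Tmem154* (0.86), *Tesc* and *Cd40lg*, the CD4 T cell costimulatory ligand. *Gata3* was nearest to *Sept9* (0.93), *Itm2c* and *Cd3g*, *Rora* to *Cd82* (0.86), *Rab8b* and *P2rx7*, *Runx1* to *Rb1* (0.85), *Atrx* and *Slc4a7*, *Zeb2* to *Far1* (0.83), *Cd38* and *Mtpn*, and *Zbtb16* to *Sptssa* (0.82), *Txnrd1* and *Tmem176a*. Among the members themselves the highest correlations were those of *Tbx21* with *Runx2* (0.75) and *Gata3* with *Rora* (0.75), and the lowest that of *Eomes* with *Zbtb7b* (-0.52).

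Genes known to act with or under these factors were counted in the same gates. Of 12 type 1 and cytotoxic genes, 10 were at least 2-fold higher in DKO-severe *Cd8* cells, none was 2-fold lower, and the median log2 ratio was 2.84. Only 7 of the 12 had a mean of 20 or more CPM there and 5 in *Cd4* Foxp3-negative cells, so the share to set beside these counts is that with no filter beyond 3 UMIs, 8.51% and 17.1% of genes at least 2-fold higher. *Gzmb*, a granule protease, went from 4.95 to 149.6 CPM, *Ccl5* from 585 to 5668 CPM, and *Cx3cr1*, a receptor of terminal effector cells, from 6.33 to 41.7 CPM, whereas *Cxcr3* (log2 ratio 0.98) and *Prf1* (0.62) were within 2-fold. In *Cd4* Foxp3-negative cells 7 of the 12 were at least 2-fold higher (median 1.31), among them *Gzmb* (3.48 and 59.9 CPM) and *Ifng* (7.36 and 23.1 CPM). Of 8 other effector regulators, 5 were at least 2-fold higher in each of these gates: *Id2*, *Prdm1* and *Bhlhe40* in both, with *Zbtb32* and *Nfil3* in *Cd4* and *Zfp683* and *Hopx* in *Cd8* cells. Only 3 of the 8 in *Cd4* and 2 in *Cd8* cells had a mean of 20 or more CPM, so the same unfiltered shares, 17.1% and 8.51%, stand beside these counts. *Bhlhe40*, a repressor of *Il10*, was at 10.1 and 102 CPM in *Cd4* cells (log2 ratio 3.34, 3.05 to 3.64). In Foxp3-positive cells 6 of the type 1 genes and 3 of the regulators were at least 2-fold higher and none lower, where 8.57% and 16.6% of genes were with no filter beyond 3 UMIs. In innate-like cells, with the clusters of other cells counted, 2 and 1 were higher and 3 and 2 lower, where 7.58% and 16.4% of genes were.

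Of 10 partners of the members in the T lineage, 3 were at least 2-fold lower and 2 higher in DKO-severe *Cd4* Foxp3-negative cells, with a median log2 ratio of -0.26. Of these 10, 9 had a mean of 20 or more CPM in each gate, and the shares over such genes are given above. The lower ones were *Lef1*, with 1122 CPM in the WT mouse (log2 ratio -2.17), *Satb1* at 890.2 and 212 CPM (-2.07) and *Bcl11b* at 665 and 246 CPM (-1.44). *Tox* (684 and 1694 CPM, 1.31) and *Gfi1* (1.29) were higher. In *Cd8* cells all 10 were within 2-fold, with a median log2 ratio of -0.10. In Foxp3-positive cells 4 of the 10 were at least 2-fold lower and 1 higher. In innate-like cells, with the clusters of other cells counted, 4 were lower. Of 9 partners of Runx proteins 8 had a ratio, and 6 in *Cd4* and 7 in *Cd8* cells were within 2-fold, with median log2 ratios of 0.05 and -0.13. *Cbfb*, the shared subunit without which Runx proteins bind DNA poorly, was at 107 and 125 CPM in *Cd4* cells (0.23, 0.13 to 0.33) and at 95.9 and 102 CPM in *Cd8* cells (0.09, -0.01 to 0.18).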

How the data were processed

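Per the labels, the authors sorted TCRβ+ cells, stained each genotype with its own hashtag and made 1 mRNA and 1 hashtag library. The deposited matrices hold raw UMI counts, and the submitters' processing notes name Cell Ranger 7.1.0 and build mm10. Whether intronic reads were counted is not given in the sources used here, which bears on the long genes *Rora*, *Runx1*, *Runx2* and *Zeb2*. Barcodes were assigned by the larger hashtag count, and 3 were left out. Cells needed 500 or more genes and 10% or less mitochondrial UMIs. The automatic Scrublet threshold marked 0 cells, so the highest 6% of doublet scores were removed. Gates required a *Cd3* UMI: *Cd4* cells had *Cd4* and no *Cd8a* or *Cd8b1*, *Cd8* cells the reverse, Foxp3-positive cells *Cd4* with *Foxp3*, and innate-like cells none of these with 2 or more of *Klrb1c*, *Klrk1*, *Klrd1*, *Fcer1g*, *Tyrobp* and *Xcl1*. Counts were summed per gate and mouse and scaled to CPM. Log2 ratios counted fewer than 3 UMIs as 3, with exact conditional intervals. Against 0 UMIs no ratio is given where the limit of 3 UMIs lies above the other level. Poisson and Clopper-Pearson intervals are exact. The retained depth was 41227055 WT and 61236862 DKO-severe UMIs. Clusters (leidenalg 0.10.2, scanpy 1.11.5, resolution 1.0) were formed without the members and lists. They were named when 3 of 6 markers were in 20% of cells at over 2 times the level of all cells. Where names tied for the most markers none was given, as in cluster 8 (CD8 T with cytotoxic) and cluster 13 (Treg with Tfh). Unnamed clusters are called by number and leading genes. The code was tested on simulated data. Members, lists and gates were chosen with earlier results of these data known. All members were named, with genes of the lists and the 3 genes most like each member. The counts of the type 17 and paralogue lists are not reported here.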

Additional observations from a re-analysis of the deposited data

Results flagged for a closer look

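*Gata3* was the only member whose log2 ratios of DKO-severe over WT had counting intervals on opposite sides of 0 in a pair of gates, both with all cells and without clusters of other cells. It was 0.62 in the *Cd4* Foxp3-negative gate (0.66 without those clusters) and -1.57 in the innate-like gate (-0.70 without them). Inside clusters the gates did not point in opposite directions. The *Cd4* log2 ratios were -0.40, -0.81 and -0.45 in clusters 0, 5 and 7, with an interval that holds 0 in cluster 0. Innate-like cells had -1.22 in cluster 9 and -0.49 in cluster 18, where the interval holds 0. The difference between the gates was not tested, since there is 1 mouse per genotype. The 6 granulocyte markers summed to 66.5 CPM (WT) and 139085 CPM (DKO-severe) in innate-like cells, and their part in the *Gata3* value was not tested beyond the values without those clusters.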

How the results depend on the processing

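With 1 mouse per genotype no value has an error between animals, and the Foxp3-positive and innate-like gates rest on 64 and 100 WT cells. No paired analysis was possible because there is 1 mouse per genotype and no test. Of the member log2 ratios recomputed under other settings, 437 stayed within their counting interval, 103 moved beyond it without a change of sign in a called value, and 10 changed sign. The causes were not tested unless the setting itself names them. The count of members at least 2-fold lower in the innate-like gate (4) became 2 with each cell weighted equally, 2 with gates on 2 or more UMIs, 2 with *Cd4* allowed, 2 with 3 or more innate-like markers, 1 after thinning to 3800 UMIs, and 0 without clusters of other cells, without cells with 1 or more marker of other cells, and without cells with 2 or more such markers (the last chosen after seeing the data). The count higher there (0) became 1 without clusters of other cells and 2 with 3 or more innate-like markers. The count higher in the Foxp3-positive gate (3) became 5 with a pseudocount of 1 CPM or 5 CPM, and 1 with gates on 2 or more UMIs or without cells with 1 or more marker. The count higher in the *Cd8* gate (5) became 3 with either pseudocount, with no doublet removal and with the highest 12% of doublet scores removed. The count higher in the *Cd4* Foxp3-negative gate (3) became 5 after thinning. Of the Runx partners, 1 and not 0 was higher in the *Cd8* gate without clusters of other cells. In the innate-like gate *Runx3* (-0.46) changed sign to 0.095 with each cell weighted equally, 0.27 without clusters of other cells, 0.35 without cells with 1 or more marker, 0.32 with 3 or more innate-like markers and 0.33 without cells with 2 or more markers, and *Rora* (-0.64) to 0.16, 0.22 and 0.14 without clusters of other cells, without cells with 1 or more marker and without cells with 2 or more markers. *Zeb2* in the Foxp3-positive gate became -0.30 after thinning, where its few WT UMIs were counted as 3, and *Zbtb16* in the *Cd8* gate became -0.45 without cells with 1 or more marker. A gate on *Trav11* was not run, since 3 WT and 7 DKO-severe cells held it.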

Other observations

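At equal depth, DKO-severe *Cd8* and *Cd4* Foxp3-negative cells held more of the 10 factors at once. The mean number of members detected per cell was 1.30 in WT and 2.19 in DKO-severe *Cd8* cells and 1.36 and 1.91 in *Cd4* Foxp3-negative cells. It was 1.72 and 2.02 in Foxp3-positive cells and 2.76 and 2.67 in innate-like cells. The same count over all genes at this depth was not made, so a rise particular to these factors is not shown. Cells with 3 or more members made up 11.9% and 37.0% of the *Cd8* gate.

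Type 2 genes, which *Gata3* is known to serve, had no member with a mean of 20 or more CPM in *Cd4* or *Cd8* cells. Of 8 type 2 genes, 5 were at least 2-fold higher in DKO-severe *Cd4* Foxp3-negative cells, among them *Areg* (2.25 and 20.6 CPM), *Ccr8* and *Il4* (5.01 and 14.5 CPM), where 17.1% of genes with no filter beyond 3 UMIs were. In *Cd8* cells 2 were higher and 1 lower, where 8.51% and 5.33% were. In Foxp3-positive cells 2 were higher, where 8.57% were, and in innate-like cells, with the clusters of other cells counted, none was past 2-fold. *Zeb1*, the paralogue of *Zeb2*, was at 286 and 172 CPM in *Cd4* Foxp3-negative cells (log2 ratio -0.73, -0.80 to -0.66), opposite in direction to *Zeb2* there. In *Cd8* cells its levels lay close together, at 301.8 and 276 CPM.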
